A study of Mus musculus with 8 samples.

Results

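The genes described here are the 8 core genes of 2 programs of lytic cell death, necroptosis and pyroptosis, in sorted Paneth cells from mice on a control or a zinc deficient diet. They were taken by name. Necroptosis was represented by Ripk1, Ripk3, Mlkl, Casp8 and Cflar, and pyroptosis by Casp1, Casp4 and Gsdmd. All 8 were found among the 55414 genes of the deposited count table, and all 8 passed the filter on low counts that left 10911 genes for testing.

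Paneth cells are the secretory cells at the base of the small intestinal crypts, which release antimicrobial peptides. RNA was sequenced from FACS-sorted Paneth cells of 8 C57BL/6J mice, 1 library per mouse. Of these, 4 received standard chow (control) and 4 received chow depleted of zinc (zinc deficient), both for 7 weeks. No transgene or other treatment is given in the labels, which state neither the age nor the sex of the mice. Summed counts per mouse were between 8557690 and 11826416 in the control group and between 9924102 and 12648005 in the zinc deficient group. The label of the cells was checked against 8 Paneth cell markers, which together held between 462515 and 608881 plain CPM (counts per 1000000 counts of the library) in every mouse.

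In necroptosis, a death receptor brings together the kinases RIPK1 and RIPK3, or a nucleic acid sensor engages RIPK3. RIPK3 then phosphorylates MLKL, which permeabilizes the plasma membrane. Caspase-8 cleaves the kinases and holds this route back, and the caspase-like protein cFLIP, encoded by Cflar, forms a heterodimer with it. In pyroptosis, inflammasome-activated caspase-1 or lipopolysaccharide-activated caspase-11 (the product of mouse Casp4) cleaves gasdermin D, whose fragments form pores. Loss of Casp8 from the intestinal epithelium is known to cause necroptosis of Paneth cells in mice. All of these steps are controlled in large part at the protein level, by phosphorylation and cleavage, and were not measured here.

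No member was called between the diets in edgeR's quasi-likelihood test at an adjusted p under 0.05. That threshold was passed by 44 of the 10911 genes, or 0.403%. With 4 mice per diet, a gene that was not called can still differ. DESeq2 also called 0 members, and 2 members, Cflar and Ripk3, had an unadjusted p under 0.05 in both tools, both with higher values in the zinc deficient group. Over all genes tested, 4.43% were higher and 6.04% lower at that unadjusted threshold in edgeR. The values of the 2 diets did not overlap for 1 member, Mlkl, which was lower in every zinc deficient mouse, as were 3.79% of all genes tested, while 2.3% were higher without overlap. The median log2 difference (zinc deficient minus control) was 0.03 over the 8 members and −0.01 over all genes tested. Since nothing is stated on cages or litters, the p-values measure the spread between these 8 mice only, and in such bulk samples fewer cells with a transcript and less transcript per cell cannot be told apart.

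**Figure D1:**
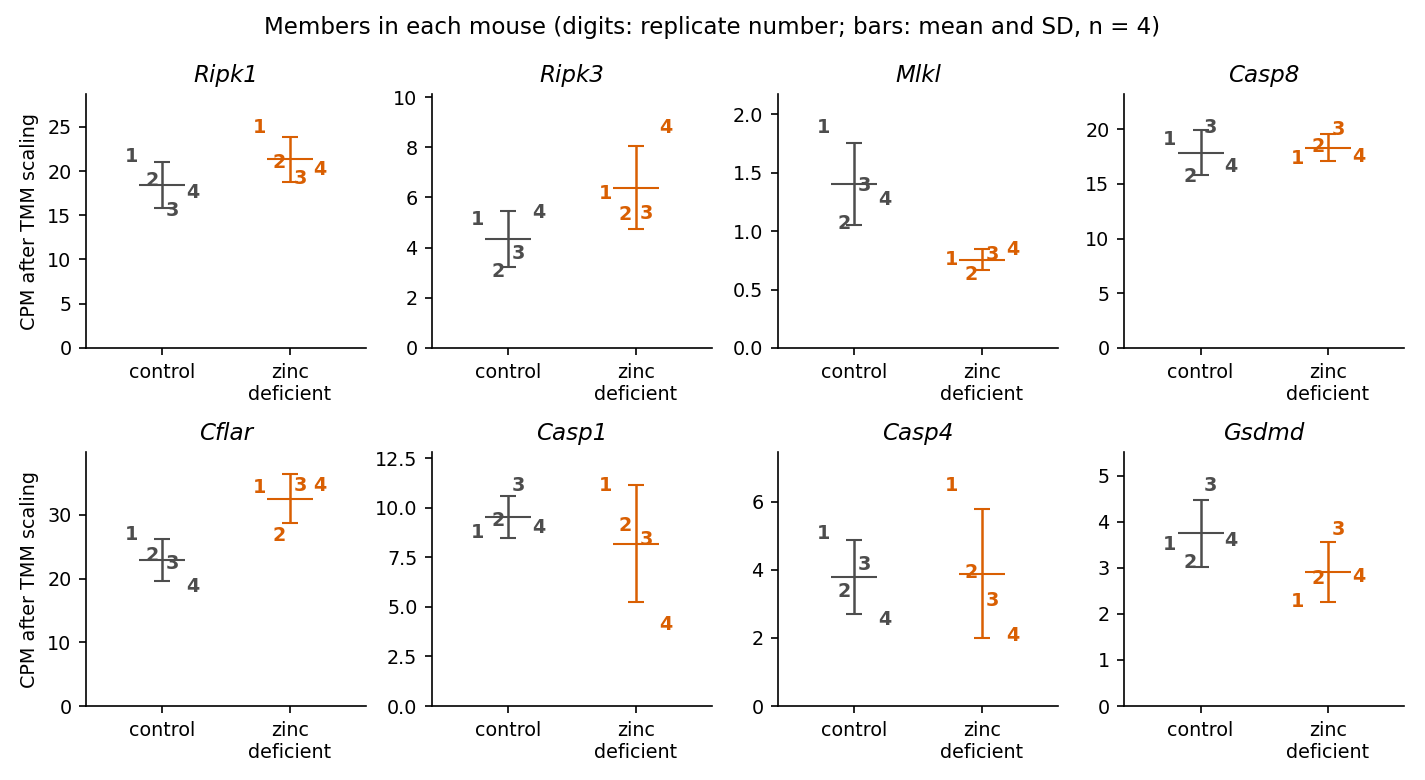
Expression of the 8 members in each mouse, as CPM after TMM scaling (y axis, from 0) by diet (x axis). Digits are replicate numbers placed at the mouse's value, and bars give the mean and SD of 4 mice; only for Mlkl do the 2 diets not overlap.

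Unless plain CPM is named, values below are CPM after TMM scaling, in which each library's total is multiplied by a factor estimated from most genes, and a difference is in log2 units, zinc deficient minus control. The factors were 1.57, 1.16, 0.928 and 0.948 for control replicates 1 to 4, and 0.935, 0.719, 1.10 and 0.846 for zinc deficient replicates 1 to 4. Control replicate 1 stood apart. On plain CPM, without these factors, all 8 members were highest in that library, where their sum was 144.1 CPM, against 63.1 to 104.1 in the other 7 mice. Values without single mice are therefore given beside the members.

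The initiating kinase gene of necroptosis, Ripk1 (ENSMUSG00000021408, chr13:34186141-34221130, plus strand, GRCm39), had 1775 counts over the 8 mice. Control mice 1 to 4 had 21.7, 18.9, 15.5 and 17.6 CPM, and zinc deficient mice had 24.9, 21.0, 19.1 and 20.2 CPM. The highest value was in zinc deficient replicate 1 and the lowest in control replicate 3, with the 2 diets overlapping between them. The means were 18.4 ± 2.59 and 21.3 ± 2.52 CPM (SD, n = 4), a log2 difference of 0.20 with a 95% confidence interval from −0.14 to 0.54 (edgeR adjusted p = 0.725). Leaving out 1 mouse at a time gave 0.12 to 0.29. Ripk1 shares 241 exon bases with Serpinb6a on the opposite strand, a gene which had 5448 counts and a log2 difference of 0.45. The library kit keeps strand, but whether the counting used it is not given in the sources used here.

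Ripk3 (ENSMUSG00000022221, chr14:56022452-56026324, minus strand), the kinase that phosphorylates MLKL, had 473 counts. Control mice had 5.12, 3.03, 3.78 and 5.40 CPM, and zinc deficient mice had 6.15, 5.30, 5.34 and 8.79 CPM. Zinc deficient replicate 4 was the highest and control replicate 2 the lowest, and control replicate 4 lay above 2 of the zinc deficient mice. Means were 4.33 ± 1.12 and 6.40 ± 1.64 CPM, or 0.56 on the log2 scale (95% confidence interval 0.0095 to 1.11, edgeR adjusted p = 0.465). This interval corresponds to a fold between 1.01 and 2.15. Without zinc deficient replicate 4 the difference was 0.37 (edgeR adjusted p = 0.876), and without control replicate 2 it was 0.42 (edgeR adjusted p = 0.841).

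Mlkl (ENSMUSG00000012519, chr8:112036296-112065168, minus strand), the executioner of necroptosis, was the scarcest member, with 102 counts in all 8 mice. Control mice had 35, 13, 11 and 12 counts, and zinc deficient mice had 7, 5, 10 and 9 counts. After scaling these were 1.89, 1.07, 1.39 and 1.27 CPM in the control group and 0.755, 0.631, 0.798 and 0.842 CPM in the zinc deficient group. Every zinc deficient mouse was below every control mouse, also on plain CPM, and control replicate 1 was the highest. Means were 1.40 ± 0.350 and 0.757 ± 0.0905 CPM, and the log2 difference of −0.89 had a 95% confidence interval from −1.83 to 0.06 (edgeR adjusted p = 0.511). Without control replicate 1 it was −0.69 (edgeR adjusted p = 0.838). Of 4122 windows of 50 bases along the Mlkl transcript, 660 also occur in other genes, 19 in number. The ribosomal protein gene Rps27a, which had 15425 counts and a log2 difference of 0.40, holds 257 windows. Gm63800, a long noncoding RNA gene on the opposite strand, holds 361 windows and shares 672 exon bases with Mlkl. It is absent from the count table. Whether reads from these genes, or from copies of Rps27a, reach the Mlkl count was not tested.

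The ratio of Ripk3 to Mlkl counts within a mouse does not depend on scaling. It was 2.71, 2.85, 2.73 and 4.25 in the control mice and 8.14, 8.40, 6.70 and 10.4 in the zinc deficient mice. All zinc deficient ratios were above all control ratios, with control replicate 4 highest in its group. The ratio was chosen with the values known and was not tested. The share of the 10910 other tested genes whose ratio to Mlkl also separated the diets was 53.4%.

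Casp8 (ENSMUSG00000026029, chr1:58834375-58886665, plus strand), the protease that restrains necroptosis and starts extrinsic apoptosis, had 1606 counts. Control mice had 19.0, 15.7, 20.2 and 16.6 CPM, and zinc deficient mice had 17.4, 18.4, 20.0 and 17.5 CPM. All zinc deficient values lay within the control range. The means of 17.9 ± 2.09 and 18.3 ± 1.22 CPM differed by 0.04 on the log2 scale, with an interval from −0.29 to 0.36 (edgeR adjusted p = 0.961). In linear terms the interval ran from a fold of 0.819 to 1.29. The log2 difference was −0.017 without control replicate 2 and −0.0026 without zinc deficient replicate 3.

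Cflar (ENSMUSG00000026031, chr1:58750321-58798047, plus strand) lies 36327 bases before Casp8 on the same strand and was the most counted member, with 2476 counts. Control mice had 26.9, 23.7, 22.4 and 18.7 CPM, and zinc deficient mice had 34.3, 26.8, 34.6 and 34.6 CPM. Zinc deficient replicates 1, 3 and 4 were above every control mouse, while zinc deficient replicate 2 lay just below control replicate 1. Means were 22.9 ± 3.36 and 32.6 ± 3.87 CPM, a fold of 1.42 (95% confidence interval 1.13 to 1.77) and a log2 difference of 0.50 (edgeR adjusted p = 0.204). This was the smallest p among the members. Over the fits that left out 1 mouse the difference stayed between 0.42 and 0.59, and with DESeq2 the adjusted p was 0.0896. Of 6968 windows along the Cflar transcript, of the same length as those for Mlkl, 1016 also occur in other genes, 1370 in number. Among these genes, Gm66452 holds 786 windows, Gm66692 holds 633 and Gm9845 holds 549. Whether reads from these genes reach the Cflar count was not tested.

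The count ratio of Cflar to Casp8, the heterodimer partners, was 1.41, 1.51, 1.11 and 1.13 in the control mice. In the zinc deficient mice it was 1.98, 1.45, 1.73 and 1.98. Zinc deficient replicate 2 again overlapped the control range, and the ratio was not tested, since it was chosen with the values known.

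Among the pyroptosis genes, Casp1 (ENSMUSG00000025888, chr9:5298508-5307290, plus strand), the protease of the canonical inflammasome, had 773 counts. Control mice had 8.74, 9.34, 11.1 and 9.0 CPM, and zinc deficient mice had 11.1, 9.09, 8.37 and 4.12 CPM. Zinc deficient replicate 4 was less abundant than all other mice, whereas zinc deficient replicate 1 lay just above the highest control mouse. The means were 9.54 ± 1.06 and 8.17 ± 2.94 CPM, or −0.22 on the log2 scale (interval −0.74 to 0.29, edgeR adjusted p = 0.812). Without zinc deficient replicate 4 the log2 difference was 0.0029.

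Casp4 (ENSMUSG00000033538, chr9:5308828-5336783, plus strand), the sensor of cytosolic lipopolysaccharide, starts 1537 bases after the end of Casp1 and had 344 counts. Control mice had 5.07, 3.36, 4.16 and 2.54 CPM, and zinc deficient mice had 6.47, 3.92, 3.11 and 2.06 CPM. Its highest and its lowest value were both in the zinc deficient group, so that the zinc deficient range enclosed the control range. The means of 3.78 ± 1.08 and 3.89 ± 1.88 CPM gave a log2 difference of 0.02 with a wide interval, from −0.70 to 0.73 (edgeR adjusted p = 0.992). Leaving out single mice moved it to −0.34 at the lowest, when zinc deficient replicate 1 was dropped, and to 0.23 at the highest, when zinc deficient replicate 4 was dropped. It was also negative without control replicate 2 (−0.031) or control replicate 4 (−0.13).

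Gsdmd (ENSMUSG00000022575, chr15:75733974-75739257, plus strand), the pore-forming substrate of both caspases, had 296 counts. Control mice had 3.51, 3.11, 4.79 and 3.60 CPM, and zinc deficient mice had 2.27, 2.78, 3.83 and 2.81 CPM. Of the zinc deficient mice, 3 were below every control mouse, and zinc deficient replicate 3 exceeded 3 of the control mice. Means of 3.75 ± 0.723 and 2.92 ± 0.655 CPM gave −0.34 on the log2 scale, with an interval from −0.95 to 0.27 (edgeR adjusted p = 0.747). It was nearest to 0 without control replicate 3, at −0.21, and farthest without zinc deficient replicate 3, at −0.50.

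**Figure D2:**
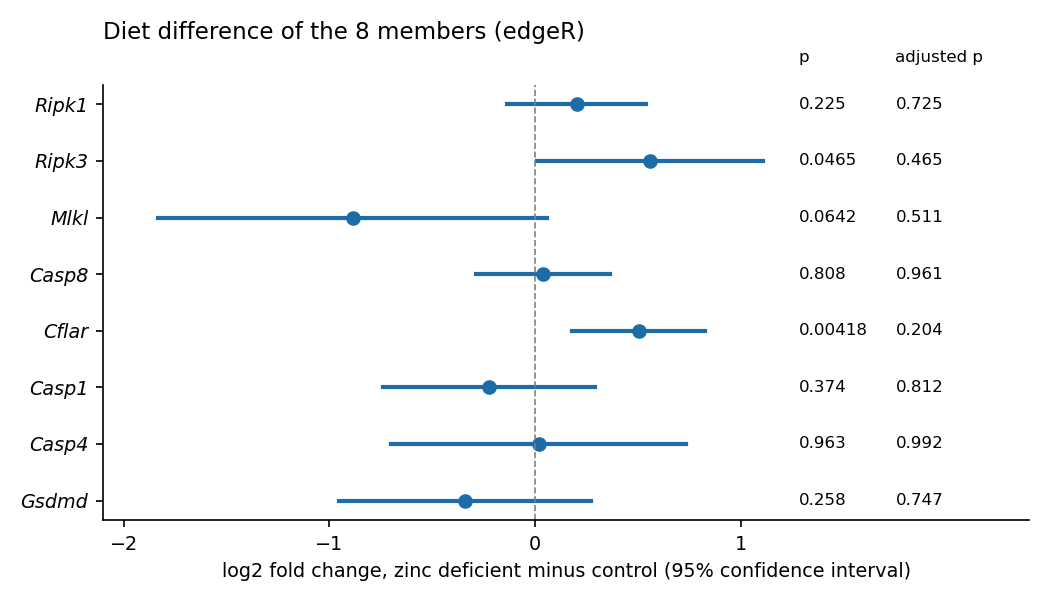
Log2 fold change of each member (x axis, zinc deficient minus control) with its 95% confidence interval from edgeR, and p and adjusted p at the right. The intervals of Cflar (0.18 to 0.83) and Ripk3 (0.0095 to 1.11) lie above 0, and that of Mlkl reaches from −1.83 to 0.06.

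The precision broadly followed the counts. The standard error of the log2 difference was 0.15 for Cflar, 0.16 for Ripk1 and Casp8, 0.25 for Casp1, 0.26 for Ripk3, 0.29 for Gsdmd, 0.34 for Casp4 and 0.45 for Mlkl. Each member had a count in every mouse, and the interval of Mlkl was the widest.

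Using library size alone as the scale moved the median log2 difference of all genes by −0.36. On that scale Ripk1 was at −0.19, Casp8 at −0.32 and Casp4 at −0.39, with signs opposite to those above. Relative to the shift they were at 0.17, 0.04 and −0.03. Cflar was at 0.13, Ripk3 at 0.17 and Mlkl at −1.28 on library size alone, and these 3, Casp1 and Gsdmd had the same sign on both scales. The unadjusted p in edgeR on library size alone was 0.668 for Cflar, 0.621 for Ripk3 and 0.0242 for Mlkl. Cflar and Ripk3 thus had an unadjusted p under 0.05 only with scaling factors.

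**Figure D3:**
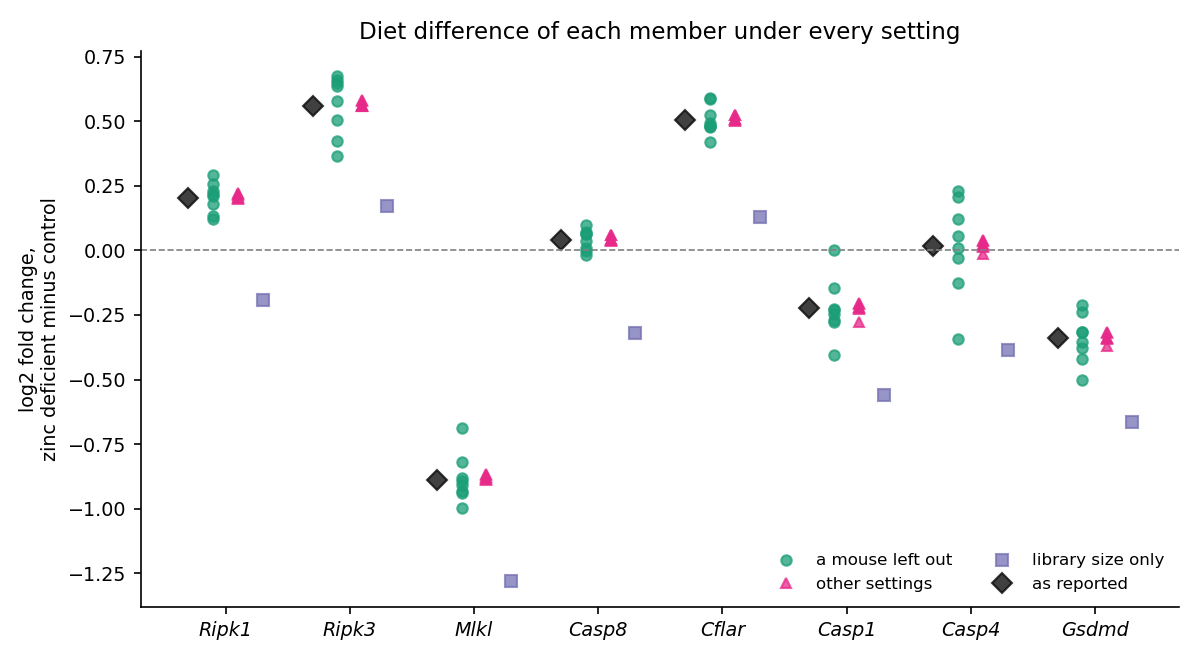
Log2 fold change of each member (y axis) as reported, with each mouse left out, with library size only, and under the other settings. Mlkl is below 0 and Cflar and Ripk3 are above 0 at every point, while Casp8, Casp1 and Casp4 cross 0 when a mouse is left out.

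Levels between genes were compared per length, as TPM, in which the counts are divided by the summed exon length of the gene and scaled to the same total in every mouse. Casp8 was the highest member at 5.06 ± 1.93 TPM (SD over 8 mice), followed by Casp1 at 2.43 ± 0.987 TPM, and was above it in 8 of 8 mice. Ripk3, Cflar and Ripk1 came next at 1.77 ± 0.685, 1.64 ± 0.637 and 1.56 ± 0.641 TPM, and these 3 did not differ beyond their spread. Gsdmd had 0.966 ± 0.421 TPM and Casp4 0.646 ± 0.386 TPM. Mlkl was the lowest in every mouse, at 0.175 ± 0.136 TPM, and ranged from 0.0573 to 0.493 TPM. The ranges of all neighbours in this order overlapped. With the length of the longest coding transcript in place of all exons, Cflar (2.94 TPM) and Ripk1 (2.26 TPM) moved ahead of Ripk3 (2.07 TPM), and Casp1 was at 4.51 TPM, below Casp8 at 5.11 TPM in 6 of 8 mice, while Gsdmd, Casp4 and Mlkl were again the last.

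**Figure D4:**
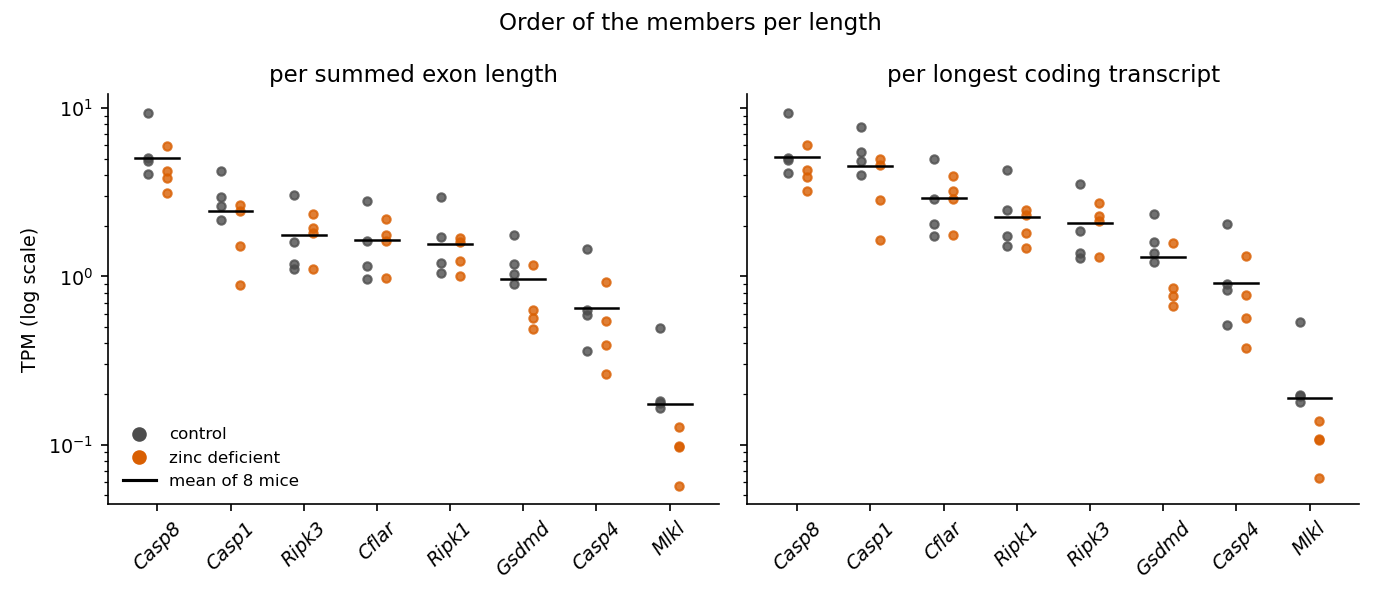
TPM of each member on a log axis, per summed exon length (left) and per longest coding transcript (right), ordered by the mean of 8 mice (black line). Points are mice, grey for control and orange for zinc deficient; Casp8 is first and Mlkl last under both lengths.

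Among 18839 genes with any count, by mean plain CPM Cflar ranked 2343rd, Ripk1 3309th, Casp8 3612th, Casp1 6140th, Ripk3 7755th, Casp4 8487th, Gsdmd 8813th and Mlkl 10626th.

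Over the 28 pairs of members, Pearson's r of log2 CPM after TMM scaling was taken over the 8 mice of both diets together. It therefore includes any diet difference, and ran from −0.87 for Ripk1 and Gsdmd to 0.73 for the neighbours Casp1 and Casp4. The partners Casp8 and Cflar had an r of 0.25. The tested genes most like each member over the 8 mice were Slc6a9 for Ripk1 (r = 0.98), Xdh for Ripk3 (0.97), Fam110a for Mlkl (0.96), Tlcd2 for Casp8 (0.94), Igtp for Cflar (0.98), Zfp764 for Casp1 (0.99), Gm5165 for Casp4 (0.98) and Siae for Gsdmd (0.97). The second most like genes were Niban1, Dph5, Gpd2, Maged2, Oaz2, Cxcl13, E4f1 and Zfp426, in the same order of members. These are descriptions over 8 points that share libraries and scaling factors, picked as the highest of 10910 genes each.

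Promoter windows of 300 bases (250 before and 50 after the transcription start) were read from RefSeq on the older build GRCm38.p6, whose starts can differ from those of GENCODE, and 7 of the 8 members had 9 windows in all. They are shown for Cflar, the member with the smallest p, for Mlkl, the member without overlap, and for Ripk1, whose window held most matches. Both strands were searched for the interferon-stimulated response element core (GAAA, any 2 bases and GAAA again), the gamma-activated site (TTCNNNGAA) and the metal response element core (TGCGCNC or TGCACNC) that is bound by the zinc sensor MTF1. Capitals mark the matches, and sequences run 5′ to 3′ on the gene's strand.
Cflar, chr1:58711241-58711540, plus strand: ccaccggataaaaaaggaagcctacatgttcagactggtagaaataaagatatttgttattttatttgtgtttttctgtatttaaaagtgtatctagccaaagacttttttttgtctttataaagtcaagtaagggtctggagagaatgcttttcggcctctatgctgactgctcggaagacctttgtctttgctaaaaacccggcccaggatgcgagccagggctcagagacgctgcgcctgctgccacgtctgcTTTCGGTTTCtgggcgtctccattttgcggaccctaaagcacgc
Ripk1, chr13:34002624-34002923, plus strand: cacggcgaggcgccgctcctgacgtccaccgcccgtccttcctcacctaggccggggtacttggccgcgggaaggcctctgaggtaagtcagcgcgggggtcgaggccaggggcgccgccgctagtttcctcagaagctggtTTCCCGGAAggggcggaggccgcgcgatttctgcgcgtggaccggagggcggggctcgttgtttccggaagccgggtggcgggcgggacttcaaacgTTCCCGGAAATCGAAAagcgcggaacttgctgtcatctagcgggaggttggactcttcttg
Mlkl, chr8:111338156-111338455, minus strand: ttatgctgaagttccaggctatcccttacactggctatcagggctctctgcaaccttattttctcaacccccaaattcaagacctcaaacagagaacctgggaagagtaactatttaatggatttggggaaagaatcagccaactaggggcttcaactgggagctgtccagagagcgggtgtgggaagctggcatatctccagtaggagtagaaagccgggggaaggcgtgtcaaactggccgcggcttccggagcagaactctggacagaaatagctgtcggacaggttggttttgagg

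The Cflar window held 1 response element core, at bases 257 to 266, on the strand opposite to the gene. The Ripk1 window held gamma-activated sites at bases 143 to 151 and 240 to 248, and a response element core at bases 246 to 255 that overlaps the latter. A further Ripk1 window, chr13:34002113-34002412, held the only metal response element core of the members, at bases 221 to 227. The windows of Mlkl, Casp8, Casp1, Casp4 and Ripk3 held no match to any of these letters. Of 32851 windows of this length in the table, 3.44% held the response element core, 8.3% the gamma-activated site and 25.7% the metal response element core. A match is a description of letters, and binding was not measured.

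The wider pathway was read from lists chosen by function. Of 30 death receptor and necroptosis regulators, 27 were tested and 0 were called by edgeR or by DESeq2. At an unadjusted p under 0.05 in edgeR, 2 were higher (Tnfrsf1a and Zbp1) and 1 was lower (Tnfsf10), and 0 were without overlap. Their median log2 difference was −0.10. Of all genes tested, 4.43% were higher and 6.04% lower at the same unadjusted threshold. Tnfrsf1a, the main TNF receptor upstream of RIPK1, averaged 61.0 CPM in control and 76.5 CPM in zinc deficient mice (log2 difference 0.32, edgeR adjusted p = 0.415). Ltbr, the lymphotoxin receptor, differed by 0.20 and Mapkapk2, a kinase that phosphorylates RIPK1, by 0.08, with adjusted p of 0.646 and 0.905 in edgeR. On library size alone all 3 had the opposite sign, at −0.06, −0.17 and −0.26. Zbp1 and Tnfsf10 are named after their values were seen. Zbp1, the nucleic acid sensor that engages RIPK3, had 6.94 CPM in control and 11.5 CPM in zinc deficient mice (log2 difference 0.70, edgeR adjusted p = 0.220). Tnfsf10, the gene of the death ligand TRAIL, had 11.1 and 6.26 CPM (log2 difference −0.84, edgeR adjusted p = 0.242). The ligand gene Fasl was at 0 in all mice, and Tnf, with 17 counts in all, was not tested.

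Of 28 inflammasome and gasdermin genes, only 12 had enough counts to be tested, and 6 were at 0 in all 8 mice. Among those at 0 were the sensors Nlrp3, Nlrp1a and Mefv and the cytokines Il1b and Il1a, against a floor of 0.0349 plain CPM that 3 counts over all libraries would give. edgeR called 0 of the 12 and DESeq2 called 1, Nlrp6. At an unadjusted p under 0.05 in edgeR, 3 were higher (Nlrc4, Naip6 and Ninj1) and 1 was lower (Nlrp6). The shares of all genes tested at that unadjusted threshold were 4.43% higher and 6.04% lower. Naip6 and Ninj1 are named after their values were seen. Nlrc4 and Naip5 were higher and Nlrp6 was lower without overlap. Over all genes tested, 2.3% were higher and 3.79% lower without overlap. On plain CPM the diets overlapped for Nlrc4 and Naip5. Nlrp6, a sensor expressed in the intestinal epithelium, averaged 28.6 CPM in control and 15.5 CPM in zinc deficient mice, a log2 difference of −0.88 (edgeR adjusted p = 0.0513). Its adjusted p crossed the threshold with DESeq2 (0.00802), with no filter on low counts (0.000297) and without zinc deficient replicate 1 (0.0318, edgeR). It was between 0.0531 and 0.279 in edgeR without any other single mouse, the highest without control replicate 2, and 0.129 with library size only. Nlrc4, the adaptor of the flagellin sensors, averaged 41.9 and 52.7 CPM, and Naip5, such a sensor, 11.4 and 14.4 CPM, with edgeR adjusted p of 0.386 and 0.530. The related gene Naip2 and the protease gene Dpp8 differed by 0.28 and −0.08 (edgeR adjusted p = 0.509 and 0.902). On library size alone Nlrc4, Naip2 and Naip5 were at −0.06, −0.08 and −0.04. Naip genes are related copies, and whether reads were divided among them was not tested.

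All 25 apoptosis genes were tested, and 0 were called by edgeR or by DESeq2, with 0 higher and 2 lower at an unadjusted p under 0.05 in edgeR. These were Bcl2l11 and the caspase gene Casp2, the latter named after its values were seen. At that unadjusted threshold 4.43% of all genes tested were higher and 6.04% lower. Bcl2l11, which encodes the pro-apoptotic protein BIM, was the gene without overlap, and was lower, as were 3.79% of all genes tested. It was at 2.29 CPM in control and 0.910 CPM in zinc deficient mice (log2 difference −1.35, edgeR adjusted p = 0.234). These values rest on 146 counts in all, 47, 24, 21 and 19 in the control mice and 12, 8, 5 and 10 in the zinc deficient mice. Among the most abundant were Mcl1, an anti-apoptotic gene (49.3 and 47.0 CPM), and the caspase gene Casp6 (26.2 and 26.9 CPM), with edgeR adjusted p of 0.921 and 0.967.

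Of 20 interferon response genes, 19 were in the table and 11 were tested, and 4 rose and none fell in edgeR. The share of all genes tested that edgeR called, in either direction, was 0.403%. Irf7, the amplifying transcription factor of that response, rose from 8.20 to 23.9 CPM (log2 difference 1.52, edgeR adjusted p = 0.00395), Oas1a from 4.18 to 12.9 CPM (adjusted p = 0.0343) and Oasl2 from 2.53 to 11.6 CPM (adjusted p = 0.0393). The fourth was Usp18, named after its values were seen (adjusted p = 0.0497 in edgeR). With library size only, these calls of Irf7, Oas1a and Oasl2 were lost, at an adjusted p of 0.184, 0.153 and 0.173 in edgeR. With 1 mouse left out, Irf7 was called in every fit. The adjusted p of Oas1a and Oasl2 lay above 0.05 in edgeR without control replicate 2, 3 or 4 or zinc deficient replicate 1 or 4, and that of Oas1a also without control replicate 1. It reached 0.141 for Oas1a (without control replicate 4) and 0.167 for Oasl2 (without control replicate 2). Genes known as interferon-inducible in other cells include Zbp1, Mlkl and Casp4. Their log2 differences here were 0.70, −0.89 and 0.02, and none of them was called. Whether the members differed from the interferon list was not tested.

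**Figure D5:**
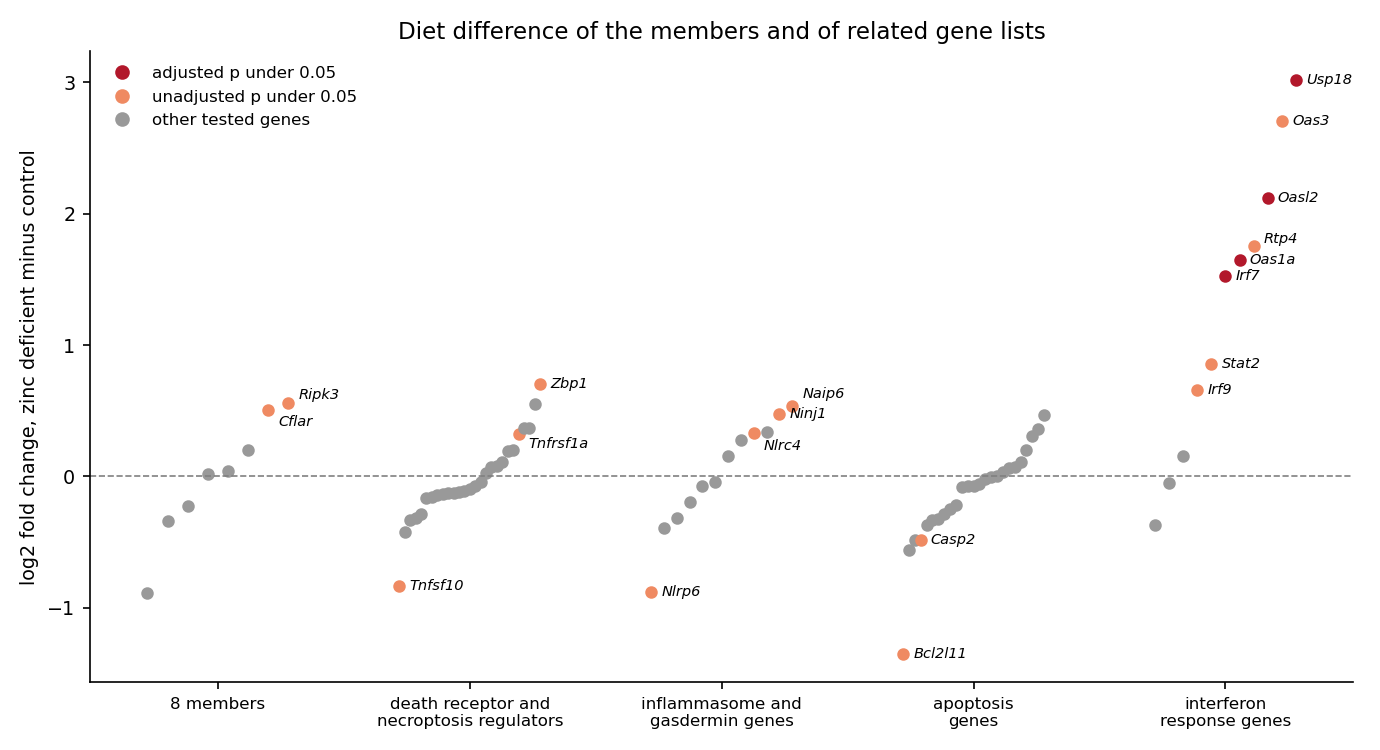
Log2 fold change (y axis, zinc deficient minus control) of the tested genes of each list, sorted within the list. Red points have an adjusted p under 0.05 and orange points an unadjusted p under 0.05 in edgeR; red points occur in the interferon response list alone.

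Markers of other cells were read beside these results, as sums of plain CPM. Of 16 immune markers, 10 were at 0 in all mice, and their sum was between 0 and 0.846 CPM in control and between 0.202 and 3.58 CPM in zinc deficient mice. Of 8 stromal and vessel markers, 5 were at 0 in all mice, and sums were at most 0.592 CPM. Of 5 erythroid markers, 2 were at 0 in all mice, and sums were at most 0.761 CPM. The 10 enterocyte markers summed to between 156.3 and 254.3 CPM in control and between 80.5 and 247.3 CPM in zinc deficient mice. The 7 goblet cell markers summed to between 7150 and 10366 CPM in control and between 7087 and 12018 CPM in zinc deficient mice. The 8 enteroendocrine markers summed to between 33.2 and 48.9 CPM in control and between 13.7 and 29.2 CPM in zinc deficient mice, without overlap on plain CPM only, since after TMM scaling the ranges were 21.4 to 42.1 and 16.2 to 40.7. The 8 stem and cycling cell markers summed to between 1378 and 2258 CPM in control and between 527 and 1118 CPM in zinc deficient mice. After TMM scaling these ranges were 1440 to 2009 and 623.1 to 1197, without overlap on both scales, and 1 of the markers, Top2a, named after its values were seen, was called lower in edgeR. The 7 tuft cell markers reached 383.6 CPM in zinc deficient replicate 3, against 13.8 to 83.0 CPM in the other mice. The part of these other cells in the values of the members, and of Bcl2l11 and Nlrp6, was not tested.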

How the data were processed

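RNA from FACS-sorted Paneth cells of 8 C57BL/6J mice was converted to libraries with a stranded mRNA kit and deposited as 1 table of raw counts per gene, made by the authors, with no normalization. The submitters' processing notes name FastQC 0.12.0, STAR 2.7.0a, DESeq2 and mm39, with no roles, and the study's methods describe STAR alignment to GRCm39. The counting program is not given in the sources used here. Names, positions and lengths came from GENCODE M39 on GRCm39, in which 54749 of 55414 identifiers were found. Promoters came from RefSeq on GRCm38.p6.

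Genes passing filterByExpr were tested with edgeR 4.0.16 (TMM, robust quasi-likelihood, R 4.3.3) with Benjamini-Hochberg adjustment over all 10911 genes, 4 mice against 4, threshold 0.05, after a check on simulated data. DESeq2 1.42.0, other scalings, no filter, no robust option, a block on the replicate number and each mouse left out were the alternatives. No pair of libraries of the same diet was a duplicate. CPM, TPM, ratios and correlations are descriptions, and floors cover counting error only. Named genes were all members, list genes called, without overlap or among the 3 most abundant, the 3 most abundant called interferon genes, and the 2 genes most like each member. Members and lists were chosen with earlier results of these data known. Ddx58 of the interferon list was not matched. A gene that the rule names is not reported here.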

Additional observations from a re-analysis of the deposited data

Results flagged for a closer look

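In 56 groups of 4 values (members, the named genes of the lists and ratios, by diet), the gap from the highest or lowest mouse to its nearest neighbour was set against Dixon's limit, which chance passes in about 1 in 20 groups. It was passed 3 times. Cflar in zinc deficient replicate 2, at 26.8 CPM after TMM scaling, lay far below the other zinc deficient mice, and its gap took 0.961 of the range of that diet. Without that mouse the log2 difference of Cflar was 0.59 (edgeR adjusted p = 0.146). The count ratio of Ripk3 to Mlkl in control replicate 4, at 4.25, lay above the other control mice with a gap of 0.914 of their range. Naip5 in zinc deficient replicate 3, at 15.9 CPM after TMM scaling, stood apart from the other zinc deficient mice with a gap of 0.870 of the range.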

How the results depend on the processing

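No member was called under any of the 15 alternatives, and the smallest adjusted p of a member was 0.0896 (Cflar, DESeq2). The number of genes called, 44 in the reported fit, was 11 with library size only, 251 with no filter on low counts, 25 without the robust option and 146 with DESeq2, and between 8 and 36 with 1 mouse left out. It was 8 without control replicate 2 or control replicate 4, and 26, 13 and 17 without zinc deficient replicate 1, 2 or 4. The share of called genes that were higher was 36.4% as reported, 56% without the robust option, 45.5% with library size only, 51.5% without control replicate 1 and 75% without zinc deficient replicate 3. Library size only shifted all genes down (median −0.36) and turned the sign of Ripk1 (−0.19), Casp8 (−0.32), Casp4 (−0.39), Tnfrsf1a (−0.058), Ltbr (−0.17), Mapkapk2 (−0.26), Nlrc4 (−0.062), Naip2 (−0.079), Naip5 (−0.045) and Casp6 (−0.33). Leaving out 1 mouse gave log2 differences that crossed 0 for Casp8 (−0.017 to 0.10), Casp1 (−0.41 to 0.0029), Casp4 (−0.34 to 0.23), Casp6 (−0.10 to 0.11) and Mcl1 (−0.14 to 0.028). The cause was not tested. Replicate numbers were not taken to pair mice, since they are not stated to do so. The deviations of same-numbered mice correlated by 0.025 to 0.090, which does not settle whether mice were paired. The mouse with the same number was the best match for 3 of 4 control mice. With the replicate number as a block, 53 genes were called, 36 of them shared with the reported fit, and 0 members, and Casp4 was at −0.014. The block moved Nlrp6 past the threshold (adjusted p = 0.0335). Mlkl had the fewest counts of the members, 102 in all.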
